A study of Mus musculus with 6 samples.

Results

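The genes described here are 10 that mark or control whether a cell keeps an epithelial or takes on a mesenchymal state: the cadherins Cdh1, Cdh2, Cdh6 and Cdh16, the adhesion molecule Epcam, the filament protein vimentin (Vim), and the transcription factors Snai1, Snai2, Zeb1 and Twist1. They were chosen by name, as the rows with these symbols, and all 10 were found among 23873 rows. All 10 also passed the filter of at least 1 FPKM in 3 libraries that left 13500 genes for testing. FPKM counts fragments relative to transcript length and library size, so levels of different genes can be compared per length. The libraries were made from kidneys of mice aged 8 weeks, 3 in each of 2 groups. The WT group is wild type by its labels. The R26NICD2/+pax8cre group carried the NICD2 allele (the Notch2 intracellular domain, which signals without a ligand) on 1 copy of Rosa26, and Pax8-Cre, a recombinase driver active along the tubule epithelium. In the title of the series the driver is given as Pax-rtTA, and the titles of the WT libraries begin with NICD, so which driver was used, and whether the WT kidneys carry the allele without a driver, remain unclear. The title concerns Notch2 activity in the growth of kidney cysts.

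Cadherins are membrane proteins that join neighbouring cells by binding a cadherin on the next cell, while catenins tie their inner ends to actin. Each nephron segment has its own mixture. E-cadherin (Cdh1) and Epcam are strongest in the distal nephron and collecting duct, kidney-specific cadherin (Cdh16) lies along the basolateral side of the tubule, and N-cadherin (Cdh2) is known from the proximal tubule. Cadherin-6 (Cdh6) is a cadherin of the developing nephron. In an epithelial to mesenchymal transition, factors of the Snail, Zeb and Twist families bind E-boxes in promoters of epithelial genes and repress them, and vimentin and often N-cadherin take their place.

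The Snail and Zeb factors recognise the E-box letters CAGGTG, read on either strand as CAGGTG or CACCTG, so the promoters of members were searched for them. RefSeq promoter windows on GRCm38.p6 were matched for 5 of the 10 genes: Epcam, Snai1, Cdh6, Vim and Twist1. The windows shown are the 250 bases before the start taken for each gene in the promoter windows. They belong to Epcam, an epithelial gene that rose, Snai1, a repressor that did not pass the test, and Cdh6, with the largest rise. Letters run from 5′ to 3′ on the strand of the gene, and capitals mark each E-box.
Epcam (chr17:87635729-87635978, plus strand): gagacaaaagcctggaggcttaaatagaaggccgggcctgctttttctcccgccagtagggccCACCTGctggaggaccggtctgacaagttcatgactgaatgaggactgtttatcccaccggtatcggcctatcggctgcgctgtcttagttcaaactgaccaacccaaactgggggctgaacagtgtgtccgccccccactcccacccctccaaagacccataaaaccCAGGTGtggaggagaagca
Snai1 (chr2:167537945-167538194, plus strand): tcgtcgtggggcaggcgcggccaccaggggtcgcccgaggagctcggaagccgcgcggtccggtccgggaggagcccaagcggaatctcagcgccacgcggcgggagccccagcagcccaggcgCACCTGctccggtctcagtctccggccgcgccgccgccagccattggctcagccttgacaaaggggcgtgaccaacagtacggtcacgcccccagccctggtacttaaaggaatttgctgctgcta
Cdh6 (chr15:13173676-13173925, minus strand): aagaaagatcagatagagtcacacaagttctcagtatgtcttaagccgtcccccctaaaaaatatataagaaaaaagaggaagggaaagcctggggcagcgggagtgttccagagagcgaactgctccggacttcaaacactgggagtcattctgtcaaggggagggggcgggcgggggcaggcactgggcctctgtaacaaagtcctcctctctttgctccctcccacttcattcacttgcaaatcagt

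The Epcam window held 2 E-boxes, CACCTG beginning 187 bases and CAGGTG beginning 19 bases before the start. The Snai1 window held 1, CACCTG beginning 126 bases before the start, and the windows of Cdh6, Vim and Twist1 held 0. Of 32851 promoter windows of the same length, 17.2% held at least 1 such E-box and 2.06% at least 2. The letters GTGGGAA, which the Notch effector RBPJ binds, were in 0 of the 5 windows on either strand, against 5.42% of all windows. These matches describe letters in a short window and say nothing of binding. The Cdh6 window precedes the start taken for the promoter windows. It lies inside the Cdh6 gene as placed by both RefSeq and the deposited file, which begins further upstream, at 13176407.

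Of the 10 genes, 4 rose in the R26NICD2/+pax8cre kidneys (Cdh6, Cdh1, Epcam and Vim), 3 fell (Cdh16, Snai2 and Cdh2) and 3 did not pass the test (Snai1, Zeb1 and Twist1). The epithelial genes Cdh1 and Epcam rose by about the same factor as the mesenchymal filament Vim. None of the 4 transition factors was called higher, though Snai1 stood 1.65-fold higher in the mean (limma adjusted p = 0.074). Over all 13500 genes tested 45.1% were called higher and 16.2% lower (61.4% either way), so the 4 and 3 of 10 are no excess of calls in themselves. The test was limma on log2(FPKM + 1) with Benjamini-Hochberg adjustment over all genes, and a call needs an adjusted p under 0.05. Its log2 fold changes understate the change of genes near 1 FPKM. The median log2 fold change was 0.11 for the 10 genes and 0.32 for all genes. Median-of-ratios scaling, which sets the typical gene equal between libraries, lowered the median of all genes by 0.30 to 0.02 and that of the 10 genes to -0.10. After it the same 4 genes were called higher (background 28.7%) and 5 lower (background 25.7%; 54.4% either way), Zeb1 and Twist1 now among them. In the authors' deposited table, whose q-values are headed DESeq2, 4 of the 10 passed a q of 0.05 upward and 4 downward. The backgrounds were 21.3% upward and 21.5% downward (42.8% either way). The 4 that were lower included Zeb1 and not Twist1.

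**Figure D1:**
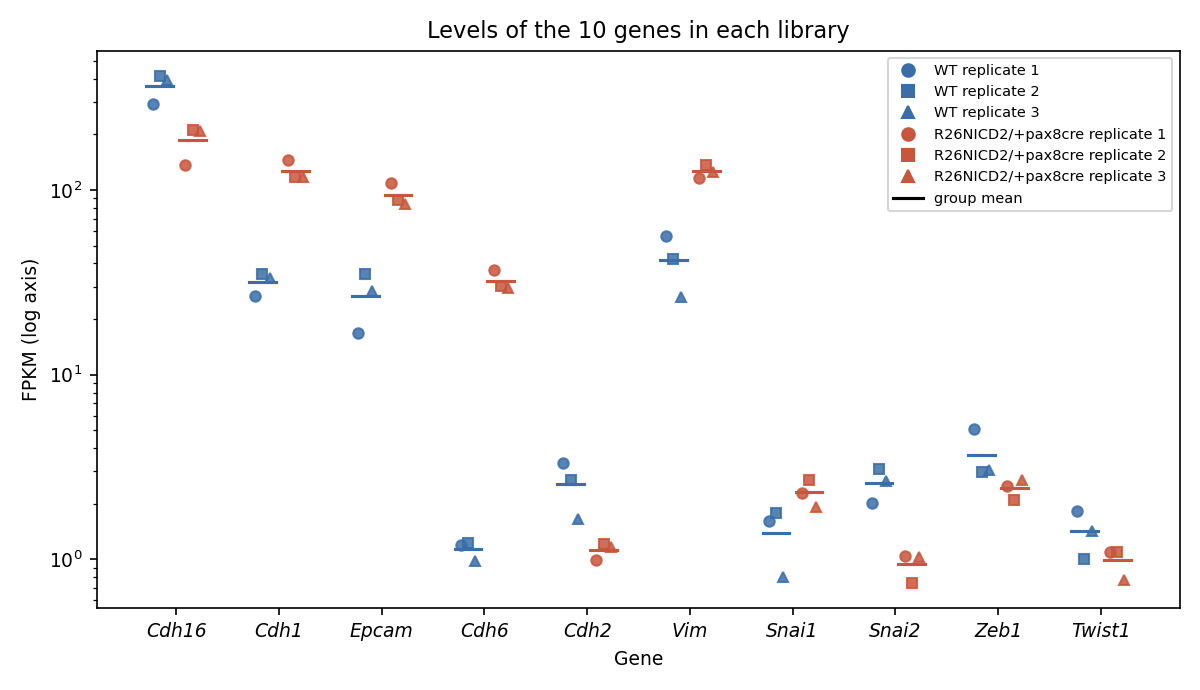
Level of each of the 10 genes in every library, in FPKM on a log axis. Points are single libraries, blue for WT and red for R26NICD2/+pax8cre, and bars are group means. The groups stood apart for every gene except Twist1; Cdh6 moved furthest, from about 1 to about 30 FPKM.

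Libraries rested on an estimated 14700000 to 17600000 fragments, from the steps between low FPKM values. The row named NOTCH2 in capitals, which has no position in the file, stood at 1.27 to 3.75 FPKM in WT and at 500.5 to 570.4 FPKM in R26NICD2/+pax8cre, in the direction of the labels. Kidney markers were present in both groups, with the proximal tubule transporter Slc34a1 at 1891 to 2797 FPKM in WT and at 43.2 to 257 FPKM in R26NICD2/+pax8cre. WT replicate 1 stood apart: 6 adrenal markers summed to 3673 FPKM there and to 1.39 to 1.63 FPKM in the other 5 libraries, and 5 fat markers to 4172 FPKM against 61.7 to 861.1 FPKM. Of the adrenal markers, Nr5a1 and Hsd3b1 were listed at 0 in all 3 R26NICD2/+pax8cre libraries, and at 0 to 0.13 FPKM in WT replicates 2 and 3. Where a call on a gene named here turns on this library, the value without it is given. Separate animals are not named in the labels, and p-values therefore cover the spread between these 6 libraries, part of which may be technical. In whole kidney, fewer cells of a type and less RNA per cell cannot be told apart.

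Cdh6 (gene 12563, chromosome 15, 13028699 to 13176407) rose most. It stood at 1.2, 1.23 and 0.98 FPKM in the 3 WT libraries and at 36.7, 30.3 and 29.3 FPKM in the 3 R26NICD2/+pax8cre libraries. The mean went from 1.14 ± 0.137 to 32.1 ± 4.03 FPKM (SD, n = 3 each), a rise of 28.2-fold. Its log2 fold change of 3.95 (SE 0.13, limma adjusted p = 1.34e-05) ranked 59 of 13500. With each library left out in turn the fold lay between 26.2 and 29.5. In the authors' deposited table its log2 fold change was 4.45. Its gene model in the file has 6 transcripts, 1 of them under the authors' own identifier, so the level depends on how fragments were shared among them.

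Cdh1 (gene 12550, chromosome 8, 106603350 to 106670247), E-cadherin, is the classical adhesion molecule of epithelia and the best known target of the repressing factors. Its levels were 26.6, 35.0 and 33.5 FPKM in WT and 144.8, 116.9 and 117.8 FPKM in R26NICD2/+pax8cre. Every R26NICD2/+pax8cre library held more than 3 times the highest WT value. The mean rose 3.99-fold, from 31.7 ± 4.49 to 126.5 ± 15.9 FPKM (SD, n = 3 each), or 3.10-fold after scaling. On the log2 scale the rise was 1.97 (SE 0.14, limma adjusted p = 0.0001). Marker counts here are to be read against 45.1% of all genes called higher and 16.2% lower. Markers of the collecting duct, a segment rich in Cdh1, summed to 217.5 to 280.3 FPKM in WT and to 114 to 171.8 FPKM in R26NICD2/+pax8cre, with 2 of 9 higher and 6 lower. Markers of the thick ascending limb and distal tubule were lower for 6 of 7 and higher for 0, but their sums overlapped, at 1258 to 2292 FPKM in WT and 1038 to 1711 FPKM in R26NICD2/+pax8cre. Umod, uromodulin and the most abundant of them, stood at 658.1 to 1498 FPKM in WT and 964 to 1611 FPKM in R26NICD2/+pax8cre (adjusted p = 0.455). The part of these segments in the level of Cdh1 was not tested.

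Epcam (gene 17075, chromosome 17, 87635979 to 87651127) encodes an adhesion molecule of simple epithelia. It stood at 16.9, 35.1 and 28.3 FPKM in WT and at 109.4, 88.1 and 84.3 FPKM in R26NICD2/+pax8cre, a rise of 3.51-fold in the mean (log2 fold change 1.82, SE 0.26, limma adjusted p = 0.00112). WT replicate 1 was the lowest of the 6 libraries, and without it the fold was 2.96. The ratio of Epcam to Cdh1 within a library was 0.635, 1.00 and 0.846 in WT and 0.756, 0.754 and 0.716 in R26NICD2/+pax8cre. The groups overlapped in this ratio, and the 3 R26NICD2/+pax8cre values lay within the range of WT.

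Cdh16 (gene 12556, chromosome 8, 104601915 to 104624396), kidney-specific cadherin, had the highest mean of the 10 genes in both groups, and it fell; in R26NICD2/+pax8cre its range overlapped that of Cdh1. Its levels were 290.8, 413.1 and 391.6 FPKM in WT and 136.9, 211.3 and 209.6 FPKM in R26NICD2/+pax8cre, with replicate 1 the lowest in each group. The mean went from 365.2 ± 65.3 to 185.9 ± 42.5 FPKM (SD, n = 3 each), 1.96-fold lower (log2 fold change -0.98, SE 0.22, limma adjusted p = 0.00728) and 2.53-fold lower after scaling. Markers of the proximal tubule were lower beside it. Of 10 genes 9 were called lower and 0 higher, against 16.2% and 45.1% of all genes. They summed to between 5211 and 8197 FPKM in WT and between 530 and 1225 FPKM in R26NICD2/+pax8cre. R26NICD2/+pax8cre replicate 1 was lowest both in that sum and in Cdh16. It was also lowest in the sums of the thick ascending limb and distal tubule (1038 FPKM) and the collecting duct (114 FPKM). The part of these segments in the fall of Cdh16 was not tested.

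Cdh2 (gene 12558, chromosome 18, 16588877 to 16809246), N-cadherin, was low and fell. It stood at 3.33, 2.68 and 1.66 FPKM in WT and at 0.99, 1.21 and 1.17 FPKM in R26NICD2/+pax8cre. The groups did not overlap, and WT was the more scattered of the pair. The mean was 2.28-fold lower (log2 fold change -0.72, SE 0.20, limma adjusted p = 0.0172). The call did not hold without WT replicate 2 (adjusted p = 0.0581) or without R26NICD2/+pax8cre replicate 1 (adjusted p = 0.0507). Without WT replicate 1, the highest library, the fall was 1.93-fold with an adjusted p of 0.031. After scaling Cdh2 was 2.86-fold lower (adjusted p = 0.00423). The proximal tubule markers given with Cdh16, from the segment where Cdh2 is known, were lower too. Within WT the order was opposite: their sum was 5211, 6884 and 8197 FPKM in replicates 1 to 3, while Cdh2 went down. The part of these markers in the fall of Cdh2 was not tested.

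The cadherins were then compared as shares of their sum, a measure in which scaling cancels, unlike in the sum itself. Summed over the 21 cadherin rows with values, the total was 351.7 to 476.1 FPKM in WT and 350.6 to 391.6 FPKM in R26NICD2/+pax8cre. After scaling the totals no longer overlapped, at 364.1 to 543.3 in WT and 303.0 to 348.7 in R26NICD2/+pax8cre, 1.45-fold lower in the mean. Cdh16 made up 82.7%, 86.8% and 87.8% of it in WT and 39.0%, 54.0% and 53.6% in R26NICD2/+pax8cre. Cdh1 went from 7.47% ± 0.107 to 33.8% ± 6.53 and Cdh6 from 0.273% ± 0.0621 to 8.56% ± 1.65 (SD, n = 3 each). For all 3 of these cadherins the shares of the groups did not overlap. In R26NICD2/+pax8cre replicate 1 Cdh1, at 41.3%, was above Cdh16, the only library of the 6 where this was so. The ratio of Cdh1 to Cdh2 within a library was 7.98, 13.1 and 20.2 in WT and 146, 96.6 and 101 in R26NICD2/+pax8cre. The ratio was higher in every R26NICD2/+pax8cre library than in any WT library, beside the lower proximal tubule markers given with Cdh16, whose part in it was not tested. These shares and ratios are descriptions, with no test.

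**Figure D2:**
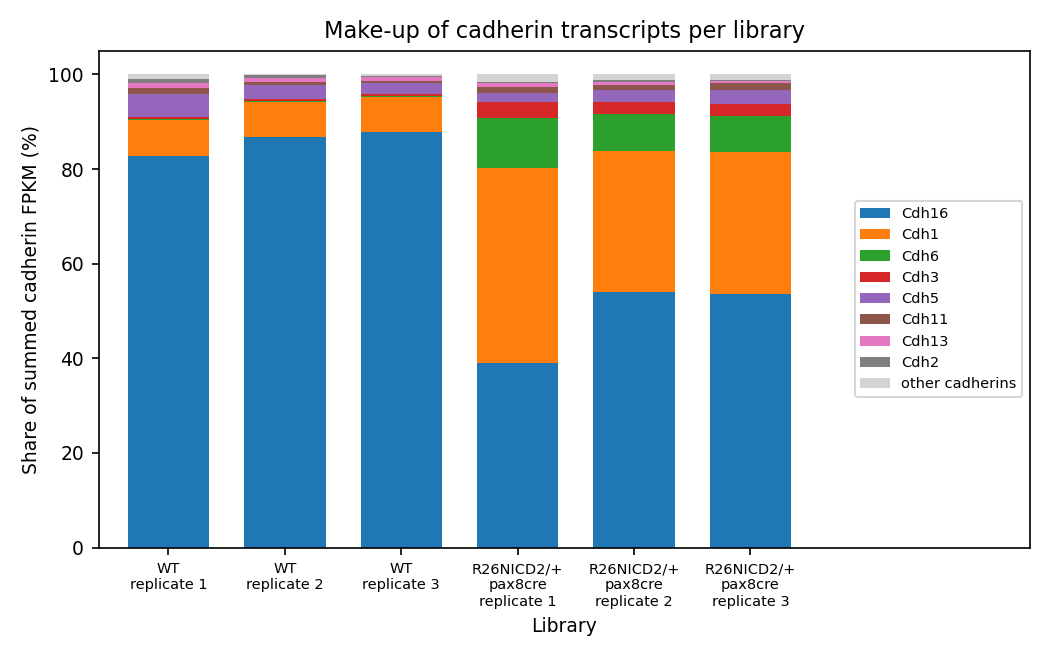
Share of each cadherin in the summed FPKM of all cadherin rows, as stacked bars in percent for each of the 6 libraries. Cdh16 fills 82.7% to 87.8% of the WT bars and 39.0% to 54.0% of the R26NICD2/+pax8cre bars, where Cdh1 and Cdh6 take up most of the difference.

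The other cadherins moved unevenly. The table holds 19 further rows named Cdh with a number, of which 17 had values and 5 passed the filter: 3 rose and 1 fell, or 2 rose and 2 fell after scaling. Over all genes 45.1% were called higher and 16.2% lower, or 28.7% and 25.7% after scaling. With 5 genes these counts are too few to set apart from those shares. Cdh3, P-cadherin, a close relative of Cdh1 known from basal and developing epithelia, stood at 1.46, 1.88 and 1.55 FPKM in WT and at 11.9, 9.63 and 9.97 FPKM in R26NICD2/+pax8cre, a 6.44-fold rise (limma adjusted p = 6.41e-05). Cdh24 rose 4.6-fold (adjusted p = 5.94e-04), from 0.613 ± 0.157 to 2.82 ± 0.466 FPKM (SD, n = 3 each). It reached 1 FPKM in 0 WT libraries and in all 3 R26NICD2/+pax8cre libraries. Cdh24 thus passed the filter only through the group where it is high, and its call is no support for a rise among cadherins. Cdh11, a cadherin of mesenchymal cells, rose 1.58-fold (adjusted p = 0.0364) and was not called after scaling (adjusted p = 0.196). Without WT replicate 2 or 3, or R26NICD2/+pax8cre replicate 2 or 3, 2 of the 5 were called higher in place of 3. Cdh13 fell 1.63-fold (adjusted p = 0.0304), a call lost without WT replicate 1 or 2 and without R26NICD2/+pax8cre replicate 2 or 3. Cdh5, the cadherin of endothelium and the most abundant of the 5 in WT, stood at 13.8 ± 3.50 in WT and 9.47 ± 2.44 FPKM in R26NICD2/+pax8cre (SD, n = 3 each; adjusted p = 0.107), and was called lower after scaling (adjusted p = 0.0175). Among rows under the filter, singled out after their values were seen, Cdh15 was at 0.03, 0 and 0 FPKM in WT and at 0.84, 1.07 and 0.55 FPKM in R26NICD2/+pax8cre.

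Vim (gene 22352, chromosome 2, 13574311 to 13582826) encodes the intermediate filament of mesenchymal cells, endothelium and leukocytes, which injured tubule cells also make. It stood at 56.0, 42.3 and 26.3 FPKM in WT and at 115.9, 135.8 and 125.7 FPKM in R26NICD2/+pax8cre, a rise of 3.03-fold (log2 fold change 1.64, SE 0.26, limma adjusted p = 0.00167). The lowest R26NICD2/+pax8cre library held more than 2 times the highest WT value. Without WT replicate 1, the highest of its group, the rise was 3.67-fold. Of 9 macrophage and dendritic cell markers 6 were higher and 0 lower (8 higher without WT replicate 1), against 45.1% and 16.2% of all genes. Their sum was 278.3 to 497.8 FPKM in WT and 1195 to 1638 FPKM in R26NICD2/+pax8cre. Most of it was Cd74, at 230.2 to 339.0 FPKM in WT and 934.9 to 1327 FPKM in R26NICD2/+pax8cre. Csf1r, Adgre1 and Ptprc were not called (limma adjusted p = 0.751, 0.389 and 0.392). Adgre1 and Ptprc were called higher without WT replicate 1, and Csf1r was not. Markers of fibroblasts, pericytes and smooth muscle summed to 177.3 to 315.7 FPKM in WT and 416.5 to 482.8 FPKM in R26NICD2/+pax8cre. Of these 11 genes 6 were higher and 2 lower, against the same shares of all genes. After scaling 5 were higher and 3 lower (backgrounds 28.7% and 25.7%). The list was split: Col1a1, Acta2 and Tagln rose 3.84-fold, 4.67-fold and 3.57-fold, while the fibroblast markers Dcn and Pdgfra fell 3.51-fold and 2.39-fold. None of these markers was listed at 0 in a whole group, and their part in the level of Vim was not tested. Within a library the ratio of Vim to Cdh1 was 2.11, 1.21 and 0.785 in WT and 0.8, 1.16 and 1.07 in R26NICD2/+pax8cre, so the groups overlapped. Vim and Cdh1 rose side by side, and neither gained on the other beyond the spread of WT.

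The repressors stayed low throughout, between 0.75 and 5.08 FPKM in every library. Single-transcript genes at this level rest on few fragments, about 18 to 68 per library for Snai1, 24 to 86 for Snai2 and 20 to 40 for Twist1. Snai2 (gene 20583, chromosome 16, 14705852 to 14709395), known as Slug, was the one repressor that passed the test without scaling, and it fell. It stood at 2.02, 3.07 and 2.66 FPKM in WT and at 1.04, 0.75 and 1.03 FPKM in R26NICD2/+pax8cre, with all 3 R26NICD2/+pax8cre libraries under the lowest WT value. The mean was 2.75-fold lower (log2 fold change -0.88, SE 0.16, limma adjusted p = 0.00291), and between 2.49-fold and 3.05-fold lower with 1 library left out.

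Snai1 (gene 20613, chromosome 2, 167538195 to 167542814), the founding factor of the Snail family, did not pass the test. It stood at 1.61, 1.78 and 0.8 FPKM in WT and at 2.3, 2.7 and 1.92 FPKM in R26NICD2/+pax8cre. The groups did not overlap as deposited, yet the difference was 0.48 on the log2 scale with a 95% interval from 0.00 to 0.96 (limma adjusted p = 0.074). After scaling the groups overlapped, the difference was 0.26 with an interval from -0.19 to 0.72, and the adjusted p was 0.278. The authors' deposited table gave a q of 0.517. The ratio of Snai1 to Snai2 was 0.797, 0.58 and 0.301 in WT and 2.21, 3.6 and 1.86 in R26NICD2/+pax8cre, so the more abundant of the pair was Snai2 in every WT library and Snai1 in every R26NICD2/+pax8cre library.

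Zeb1 (gene 21417, chromosome 18, 5591327 to 5775468), a zinc finger repressor of Cdh1 that mesenchymal and endothelial cells express, stood at 5.08, 2.97 and 3.04 FPKM in WT and at 2.51, 2.11 and 2.69 FPKM in R26NICD2/+pax8cre. The groups did not overlap, with WT replicate 1 far above the rest. The log2 difference was -0.43 (95% interval -0.89 to 0.04, limma adjusted p = 0.0971). After scaling it was -0.68 with an adjusted p of 0.0122, and in the authors' deposited table Zeb1 was lower with a q of 0.00119. Without WT replicate 1 the mean was 1.23-fold lower in place of 1.52-fold; scaled, and without that library, the log2 difference was -0.53 (adjusted p = 0.0124). Endothelial markers were lower beside it, with 7 of 8 called lower, against 16.2% of all genes. They summed to 214.8 to 234.7 FPKM in WT and 92.8 to 119.6 FPKM in R26NICD2/+pax8cre, with none listed at 0 in a whole group. Their part in the level of Zeb1 was not tested.

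Twist1 (gene 22160, chromosome 12, 33957671 to 33959831), a helix-loop-helix factor of embryonic mesenchyme, stood at 1.83, 1 and 1.42 FPKM in WT and at 1.1, 1.1 and 0.77 FPKM in R26NICD2/+pax8cre. It was the one member whose groups overlapped as deposited. The log2 difference was -0.27 (95% interval -0.68 to 0.14, limma adjusted p = 0.21). After scaling it was -0.46 with an adjusted p of 0.0481, which became 0.0961 without WT replicate 1, and the authors' deposited table gave a q of 0.127.

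As deposited, the groups did not overlap for 5 members higher and 4 lower, against 49.9% and 18.8% of all genes (68.7% either way). After scaling these were 4 and 5 members, against 34.3% and 30.5% (64.9% either way). The order of levels per length shows the rearrangement. In WT Cdh16 stood alone at the top. Vim, Cdh1 and Epcam followed with overlapping neighbours, and the other 6 genes lay at or under 5.08 FPKM, each overlapping the next. In R26NICD2/+pax8cre the ranges of Cdh16 and Cdh1 overlapped, as did those of Cdh1 and Vim. Epcam stood apart below Vim, and Cdh6, the lowest of the 10 in WT, stood apart below Epcam. Zeb1 and Snai1 overlapped, and Cdh2, Twist1 and Snai2 came last with overlapping ranges.

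**Figure D3:**
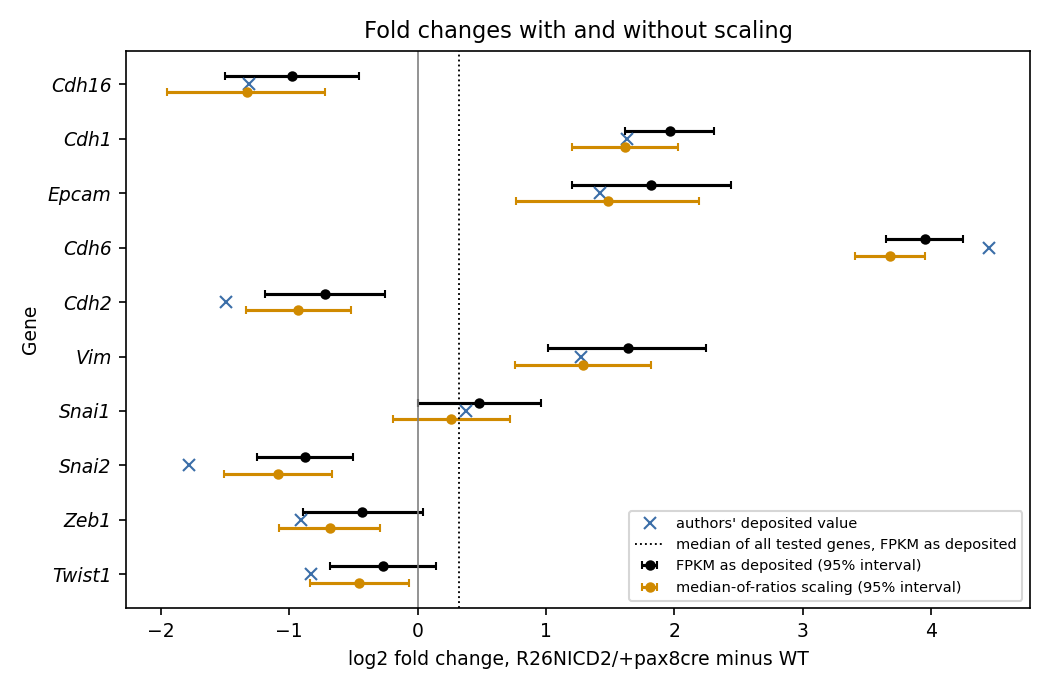
Log2 fold change of each gene, R26NICD2/+pax8cre minus WT, with its 95% interval from limma on FPKM as deposited (black) and after median-of-ratios scaling (orange); crosses are the authors' deposited values and the dotted line is the median of all tested genes, 0.32. Scaling moves each gene to the left, Zeb1 and Twist1 then lie fully below 0, and the interval of Snai1 includes 0.

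Partners of these genes were counted in 6 further lists, chosen with earlier results of these data known, and each count is to be read against 45.1% higher and 16.2% lower over all genes as deposited, and against 28.7% and 25.7% after scaling. Of 13 adherens junction genes, most of them proteins on the inner side of cadherins and 3 of them nectins, which are adhesion molecules of the membrane, 10 rose and 0 fell (median log2 fold change 0.68). The list held Ctnnd1, the catenin that keeps cadherins at the membrane, which rose 1.74-fold (limma adjusted p = 4.30e-04), Jup, plakoglobin, which rose 2.04-fold (adjusted p = 4.92e-04), and Ctnnb1, beta-catenin and the most abundant, which rose 1.68-fold from 123.9 ± 7.12 to 208.2 ± 7.88 FPKM (SD, n = 3 each). After scaling 7 were higher and 1, Plekha7, was lower, as it was without WT replicate 1 (adjusted p = 0.0439). The scaled rises of Ctnnd1, Jup and Ctnnb1 were 1.36-fold, 1.59-fold and 1.32-fold, and the scaled median of the list was 0.34.

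Tight junction and polarity genes seal the space between cells and set their upper and lower sides, and 14 of 18 rose and 1 fell (median 0.74). After scaling 8 were higher and 1 lower. Cgn, cingulin, a protein of the inner side of the tight junction, rose 5.10-fold (limma adjusted p = 1.20e-04). F11r, a junction adhesion molecule, rose 2.35-fold. The member that fell, Mpp5, a scaffold of the apical Crumbs complex named here after its value was seen, was 1.68-fold lower (adjusted p = 0.0155).

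Regulators and companions of epithelial identity included many that rose: 16 of 20 rose and 1 fell as deposited (median 1.41), and 15 and 2 did after scaling. Cldn7, a claudin that binds Epcam, rose 6.51-fold (limma adjusted p = 8.94e-05). Prss8, a membrane protease and the most abundant of the list in WT, stood at 170.4 ± 44.6 and 114.7 ± 22.5 FPKM (SD, n = 3 each; adjusted p = 0.0793). It was called lower after scaling (log2 fold change -0.90, adjusted p = 0.0307) and without WT replicate 1 (-0.77, adjusted p = 0.0123). Chosen after their values were seen, Grhl2 and Esrp1, an activator of Cdh1 and a splicing factor of epithelia, rose 4.73-fold and 4.30-fold, whereas Ovol1, a repressor of Zeb1, fell 3.33-fold (adjusted p = 9.03e-04).

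Of 12 tested among 20 other transcription factors tied to the transition, 7 rose and 0 fell (median 0.87), and after scaling 7 were higher and 2, Tcf4 and Foxc2, lower. Sox9, a factor of nephron progenitors and injured tubules, stood at 0.38, 0.35 and 0.33 FPKM in WT. It stood at 25.6, 17.9 and 13.4 FPKM in R26NICD2/+pax8cre, 53.6-fold higher in the mean. Sox9 passed the filter only through the R26NICD2/+pax8cre libraries, so its place among the 7 is no support for a rise of the list. Tcf3, which can bind the E-box of Cdh1, rose 3.11-fold, from 8.15 ± 1.36 to 25.4 ± 0.823 FPKM (SD, n = 3 each; limma adjusted p = 1.53e-04). Tbx2, the most abundant, rose 1.64-fold. Zeb2, the closest relative of Zeb1 and named for that reason, stood at 5.59, 3.29 and 2.64 FPKM in WT and at 4.57, 3.99 and 4.6 FPKM in R26NICD2/+pax8cre (adjusted p = 0.47). WT replicate 1 was the highest of the 6 libraries, and without it Zeb2 was called higher, 1.48-fold (adjusted p = 0.0249), the count of the list then being 8 of 12.

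Among 20 mesenchymal and matrix readouts 16 rose and 0 fell (median 1.72), and 15 and 0 after scaling. Tnc, the matrix protein tenascin C, rose 7.69-fold (limma adjusted p = 4.97e-05). Sparc, the most abundant, stood at 272.6 ± 117 and 320.0 ± 12.1 FPKM (SD, n = 3 each; adjusted p = 0.362). Without WT replicate 1, where it was at 404.2 FPKM, Sparc was called higher, 1.55-fold (adjusted p = 0.00792), and 18 of the 20 genes were then called higher. The filament gene Nes, named after its value was seen, rose 4.26-fold, while Des, desmin of muscle, was at 7.44 ± 0.118 and 8.24 ± 0.372 FPKM (SD, n = 3 each; adjusted p = 0.273). The list shares Col1a1, Acta2 and Tagln with the fibroblast and smooth muscle markers, whose sum was higher as given beside Vim.

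The last list holds ligands, receptors and Smads of the TGF-beta pathway together with Notch pathway genes, and 14 of 17 rose and 0 fell (median 1.17), or 11 and 1 after scaling. Not all of its members promote the transition: Smad7, which rose, and Bmp7, which was called lower after scaling (adjusted p = 0.00518), oppose TGF-beta signalling. Hes1, Heyl and Nrarp, all of which rose, are known targets of Notch, the pathway that the allele activates. Heyl rose 114-fold and Jag1, a Notch ligand, 19.9-fold. Ccn2, a matrix signalling protein and the most abundant of the list in WT, stood at 75.8 ± 26.6 and 108.2 ± 7.13 FPKM (SD, n = 3 each; limma adjusted p = 0.0751). Over the 105 genes tested in all 7 lists together, 80 rose and 3 fell as deposited, and 65 and 9 after scaling. Hence the fall of Snai2, Cdh2 and Cdh16 stood against the direction of most of the genes listed with them, a description of counts and not a test of difference.

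**Figure D4:**
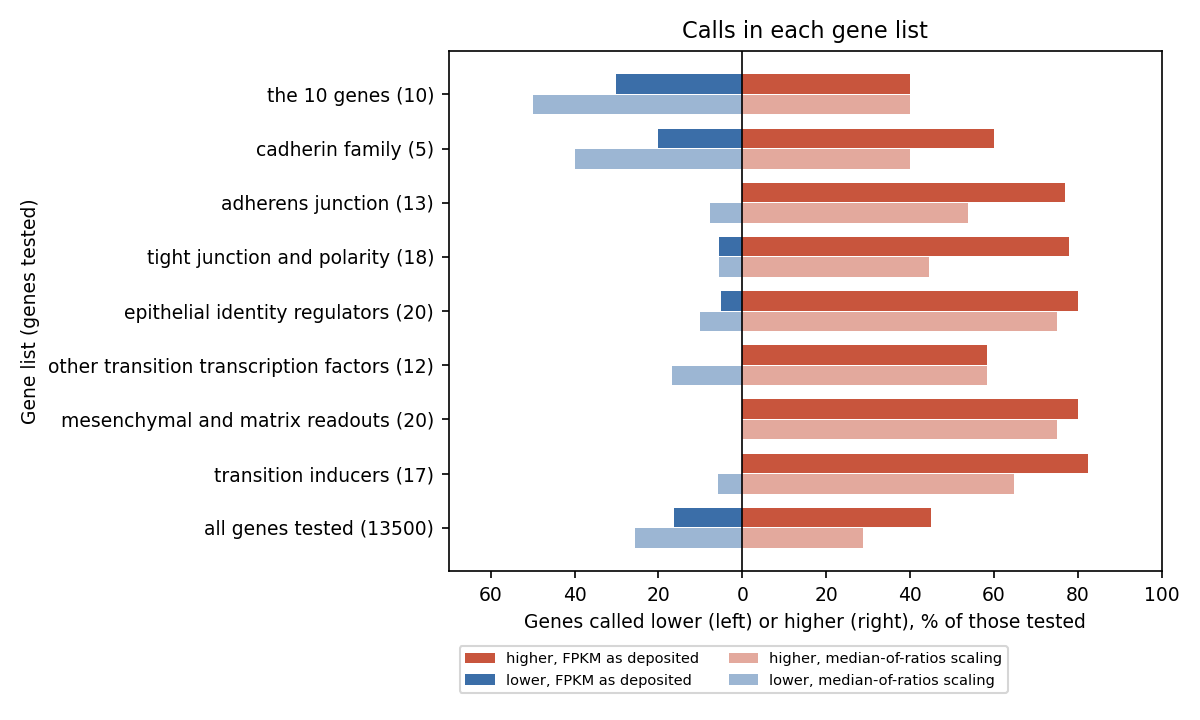
Share of tested genes called lower (blue, left) or higher (red, right) in each list, in percent, with the number tested in brackets; dark bars are FPKM as deposited and pale bars median-of-ratios scaling. Of the lists plotted, the 10 genes have the largest share called lower after median-of-ratios scaling, 5 of 10, with Twist1 at a limma adjusted p of 0.0481. The next is the cadherin family, 2 of 5. The bottom row gives all 13500 genes.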

How the data were processed

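Whole-kidney RNA was extracted with Trizol and libraries were built with a TruSeq RNA kit (per the labels' protocols). The authors deposited 1 table with FPKM per library, and with group means in FPKM, log2 fold changes and q-values. Per the file headers the q-values came from DESeq2, and no tool is named for the log2 fold changes. Bowtie 0.12.2 and build mm8 are named in the submitters' processing notes; the positions in the file matched RefSeq genes of GRCm38 for 19406 of 22002 identifiers (88.2%) and for all 10 members, and are read as GRCm38. The counting tool and its strand setting are not stated in any label or header. There were 0 further per-library columns. The transcript length in bases, another value deposited by the authors, served only to estimate depth.

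Here log2(FPKM + 1) was compared between genotypes, with no other term, by limma 3.58.1 (trended variance, R 4.3.3; two-sided). It covered the 13500 genes that reached 1 FPKM in 3 or more libraries. Errors on FPKM are SD over 3 libraries, and folds are ratios of mean FPKM. Depth was estimated from genes of 500 to 1500 bases with 1 transcript. It is the value, within a fixed range of depths and length offsets tried, that best made low values whole multiples. Of these values 71.2% to 78.0% lay within 0.15 of a whole number, and no count test was made. In simulated data on 13500 genes for this comparison 90% of 100 genes shifted by log2 1 were called. Of 100 genes shifted by log2 2, 96% were called, and 4.62% of all calls were false. The shifted genes were drawn only from genes with WT levels above those of Cdh2, Cdh6, Snai1, Snai2, Zeb1 and Twist1. The shares called therefore do not cover these members. Far fewer genes were shifted than were called in the data.

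The members and lists were chosen with earlier results of these data known. Within each list the named genes are the 2 with the smallest p (5 for the cadherins) and the most abundant in WT; others are marked as chosen after their values were seen, and some that the rule names are not reported here. Alternatives were pseudocounts of 0.1 and 5, no filter and a filter of 10 FPKM, 3 scalings, a replicate block, each library left out, an adjusted p of 0.01 and a minimum log2 fold change of 1.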

Additional observations from a re-analysis of the deposited data

How the results depend on the processing

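Cdh1, Cdh6, Epcam and Vim were called higher under all 18 alternatives, and no member changed direction. Among all genes, 6095 were called higher and 2190 lower as deposited. These counts became 3873 and 3473 with median-of-ratios scaling, 3866 and 3558 with quantile normalization, 3742 and 1439 with a filter of 10 FPKM, and 2427 and 1009 with a minimum log2 fold change of 1. With median-of-ratios scaling 3827 genes were lower without WT replicate 1 and 3211 higher without R26NICD2/+pax8cre replicate 2. Of the members, 3 were called lower as deposited, 5 with median-of-ratios scaling or quantile normalization, 1 with a filter of 10 FPKM, which left 5 members to test, and 0 with a minimum log2 fold change of 1. Leaving out 1 library as deposited gave 2 to 3. Upper quartile scaling gave 4, as did median-of-ratios scaling without WT replicate 1 or without R26NICD2/+pax8cre replicate 2. Of the 105 list genes 3 were called lower as deposited, 9 with median-of-ratios scaling (11 without WT replicate 1 and 7 without R26NICD2/+pax8cre replicate 2), 10 with quantile normalization, 8 with upper quartile scaling and 1 with a filter of 10 FPKM, an adjusted p of 0.01 or a minimum log2 fold change of 1. Leaving out 1 library gave 1 to 4, with 1 without WT replicate 2 or R26NICD2/+pax8cre replicate 3. The cause of these shifts was not tested beyond the smaller number of genes that a filter tests. The log2 ratio of Vim to Cdh1 differed between the groups by -0.34, and by -0.68 to 0.03 with 1 library left out, the latter without WT replicate 1.

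Same-numbered libraries did not deviate together (correlations of 0.095, -0.05 and 0.006), so the replicate number pairs no samples. With the replicate block 5818 genes were higher and 2164 lower, list genes lower became 5, and Snai1 had an adjusted p of 0.0428. Depth limits Snai1, Snai2 and Twist1, at 18 to 86 fragments per library.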
